A study of Mus musculus with 3 samples.

Results

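The Hox cluster genes were examined as 38 named members, which lie in 4 clusters of the mouse genome: 10 in HoxA on chromosome 6, 10 in HoxB on chromosome 11, 9 in HoxC on chromosome 15 and 9 in HoxD on chromosome 2. They were chosen by name, with earlier results of these data known, and they are 38 of the 22367 protein-coding genes of the annotation. Genomic DNA of E14 mouse embryonic stem cells (mESCs), an established cell line grown in serum with LIF, the MEK inhibitor PD0325901 and the GSK3 inhibitor CHIR99021, was read by 3 bisulfite-free methods. TAPSβ reads 5-methylcytosine (5mC) after 5-hydroxymethylcytosine (5hmC) has been blocked by a glucose, CAPS reads 5hmC after chemical oxidation, and PS reads 5-formylcytosine and 5-carboxylcytosine (5fC/5caC) directly. Each method had 1 library, no untreated or differentiated cells were compared, and expression was not measured, so neither Hox transcription nor the identity of the cells could be checked here.

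Hox genes encode homeodomain transcription factors that give cells their position along the body axis. Within a cluster they lie in the order in which they are switched on and in which they act from head to tail, and genes at the same place in different clusters form paralog groups. In embryonic stem cells the clusters are known as large domains of Polycomb-repressed, CpG-rich chromatin, kept silent until differentiation. DNA methylation, its oxidised form 5hmC and the further oxidised forms 5fC/5caC are steps of one pathway, in which TET enzymes oxidise 5mC.

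A level is the percentage of base calls at CpG cytosines that read as modified, summed over a region and over both strands, with no false-positive rate subtracted. A level is not corrected for incomplete conversion either, so it is not the share of molecules modified. In this bulk DNA, fewer modified cells and fewer modified alleles per cell cannot be told apart. Intervals are exact 95% binomial (Clopper-Pearson) intervals and cover counting error only, and they treat calls from one read at neighbouring cytosines as independent. The libraries held 511365019 base calls for TAPSβ, 377288829 for CAPS and 383591531 for PS, with genome-wide levels of 57.6%, 3.14% and 0.246% and median depths of 13, 9 and 9 reads per cytosine. All 38 promoters and all 38 gene bodies had at least 50 calls in each library, and the fewest calls in a promoter were 324 for TAPSβ (Hoxb4) and 312 for CAPS (Hoxb3). With 1 library per method there is no replicate spread, and no difference below carries a test between samples.

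The member promoters spanned the range from unmethylated, dense CpG islands to methylated, CpG-poor sequence, and both ends are shown first because the comparisons turn on them. A promoter here is 500 bp on each side of the outermost annotated start. The highest TAPSβ promoter level was that of Hoxd4, and the lowest that of Hoxb7. The lines below give the 300 bases upstream of the outermost Hoxd4 start (chr2:74559735-74560034) and the 300 bases upstream of the Hoxb7 start (chr11:96145271-96145570). Both are of the NCBIM37 (mm9) reference, on the plus strand, 5′ to 3′, with CpGs in capitals.
Hoxd4: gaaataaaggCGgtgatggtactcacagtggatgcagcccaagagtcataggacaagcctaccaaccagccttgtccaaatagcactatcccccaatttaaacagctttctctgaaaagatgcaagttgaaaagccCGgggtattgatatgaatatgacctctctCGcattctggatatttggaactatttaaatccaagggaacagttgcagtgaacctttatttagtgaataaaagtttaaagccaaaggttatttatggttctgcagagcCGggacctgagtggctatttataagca
Hoxb7: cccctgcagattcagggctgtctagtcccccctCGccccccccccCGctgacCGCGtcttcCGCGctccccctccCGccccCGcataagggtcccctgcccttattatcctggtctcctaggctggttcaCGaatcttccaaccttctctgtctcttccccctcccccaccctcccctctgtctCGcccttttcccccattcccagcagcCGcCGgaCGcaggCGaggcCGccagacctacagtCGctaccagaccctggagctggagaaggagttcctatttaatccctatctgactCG
The Hoxd4 sequence at the outermost start held 4 CpGs, and 63 of its 95 TAPSβ calls were modified, a level of 66.3% (55.9 to 75.7%). The Hoxb7 sequence, which lies within the Hoxb8 gene record, held 17 CpGs, and 0 of its 363 TAPSβ calls were modified, with an upper interval bound of 1.01%. CAPS read 1 of 107 calls as modified at the outermost Hoxd4 start and 2 of 138 upstream of Hoxb7.

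Over all members, the promoters had a pooled TAPSβ level of 5.30% (5.11 to 5.48%), a CAPS level of 1.62% (1.48 to 1.78%) and a PS level of 0.270% (0.218 to 0.331%). A promoter TAPSβ level under 10% was found in 26 of 38 members (68.4%), against 59.3% of the 21129 protein-coding genes measured. The median member promoter, at 3.94%, lay close to the median of all genes, 3.38%. The gene bodies stood further from those of other genes. The pooled body level was 13.2% (13.1 to 13.4%) for TAPSβ, 2.63% (2.55 to 2.72%) for CAPS and 0.251% (0.226 to 0.277%) for PS. Cut to the shortest coding transcript of each gene, the bodies read 7.76% TAPSβ. A body TAPSβ level under 20% was found in 32 of 38 members (84.2%), against 9.16% of the 21669 genes measured. The median member body read 10.3% where the median gene read 53.8%.

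Hox genes are short, and short genes had low bodies more often. Among genes of at most 10 kb, 29 of 33 members and 21.6% of 8254 genes had a body level under 20%, with medians of 8.998% and 49.5%. Among longer genes the count was 3 of 5 members against 1.52% of 13415 genes. This split by length was added after the data had been seen.

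In HoxA, the promoters ran from 0.176% (0.0573 to 0.411%) at Hoxa4 to 14.8% (12.8 to 17.0%) at Hoxa3. Hoxa2, which patterns the hindbrain and the second pharyngeal arch, had 11.3%, Hoxa6 7.79%, Hoxa9 6.87% and Hoxa5 3.44%. Hoxa7 read 2.33%, Hoxa10 2.28%, Hoxa11 1.37% and Hoxa13 0.587%. Among Hoxa9 to Hoxa13, genes of the posterior trunk, limb and reproductive tract, Hoxa9 read highest, while the intervals of Hoxa10 and Hoxa11 and those of Hoxa11 and Hoxa13 overlap. The HoxA bodies ran from 6.05% (5.31 to 6.86%) at Hoxa4 to 20.7% (19.6 to 21.9%) at Hoxa6. Hoxa3 has 2 gene records, and its body was taken as their merged span of 49981 bp. This span holds all of Hoxa4, Hoxa5 and Hoxa6 and 2055 bp of Hoxa2, so its body level of 17.0% contains their calls there. In the figures for all genes each record was counted on its own.

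HoxB had the most promoters above 10%: 6 of its 10 members, where 59.3% of all protein-coding genes measured were under 10%. Hoxb3 read 57.7% (52.2 to 63.0%), Hoxb4 48.1% (42.6 to 53.7%), Hoxb6 21.3%, Hoxb2 17.6%, Hoxb5 16.8% and Hoxb8 15.5%. Hoxb13 (7.36%) and Hoxb1 (5.80%) were lower, and Hoxb9 and Hoxb7 were at 0.454% (0.249 to 0.761%) and 0.110% (0.0133 to 0.397%). The bodies did not follow the promoters. Hoxb8 had the lowest body of all members, 1.52% (1.19 to 1.91%), and Hoxb2, which acts with its paralogs in the hindbrain, had 3.87% (3.37 to 4.43%). Hoxb13, a prostate and tail bud gene that lies 74009 bp from the nearest other member, Hoxb9, had the highest body of all members, 28.6% (26.7 to 30.5%).

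In HoxC, 7 of 9 promoters were under 10%, from 0.211% (0.0685 to 0.491%) at Hoxc13, a hair and nail gene, to 4.43% at Hoxc5. Between these lay Hoxc8 (1.32%), Hoxc11 (1.42%), Hoxc10 (1.82%), Hoxc12 (2.18%) and Hoxc9 (2.82%). Hoxc6 read 10.4%, and Hoxc4 stood apart at 60.5% (55.9 to 64.9%). Its body was also the highest of the cluster, 27.5% (26.5 to 28.5%), while that of Hoxc11 was the lowest, 2.15% (1.78 to 2.58%). In HoxD, 7 of 9 promoters were likewise under 10%, against 59.3% of all protein-coding genes measured. Hoxd13, which shapes the digits, had 0.189% (0.0693 to 0.411%), Hoxd1 0.264%, Hoxd3 0.710%, Hoxd8 1.31% and Hoxd11 2.52%, while Hoxd9 and Hoxd10 had 5.68% and 6.24%. Hoxd12 read 18.9% (16.4 to 21.7%) and Hoxd4 67.6% (62.3 to 72.5%). The HoxD bodies ran from 1.95% (1.59 to 2.38%) at Hoxd9 to 26.2% (24.9 to 27.5%) at Hoxd4, and Hoxd12 and Hoxd3 were also above 20%.

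**Figure D1:**
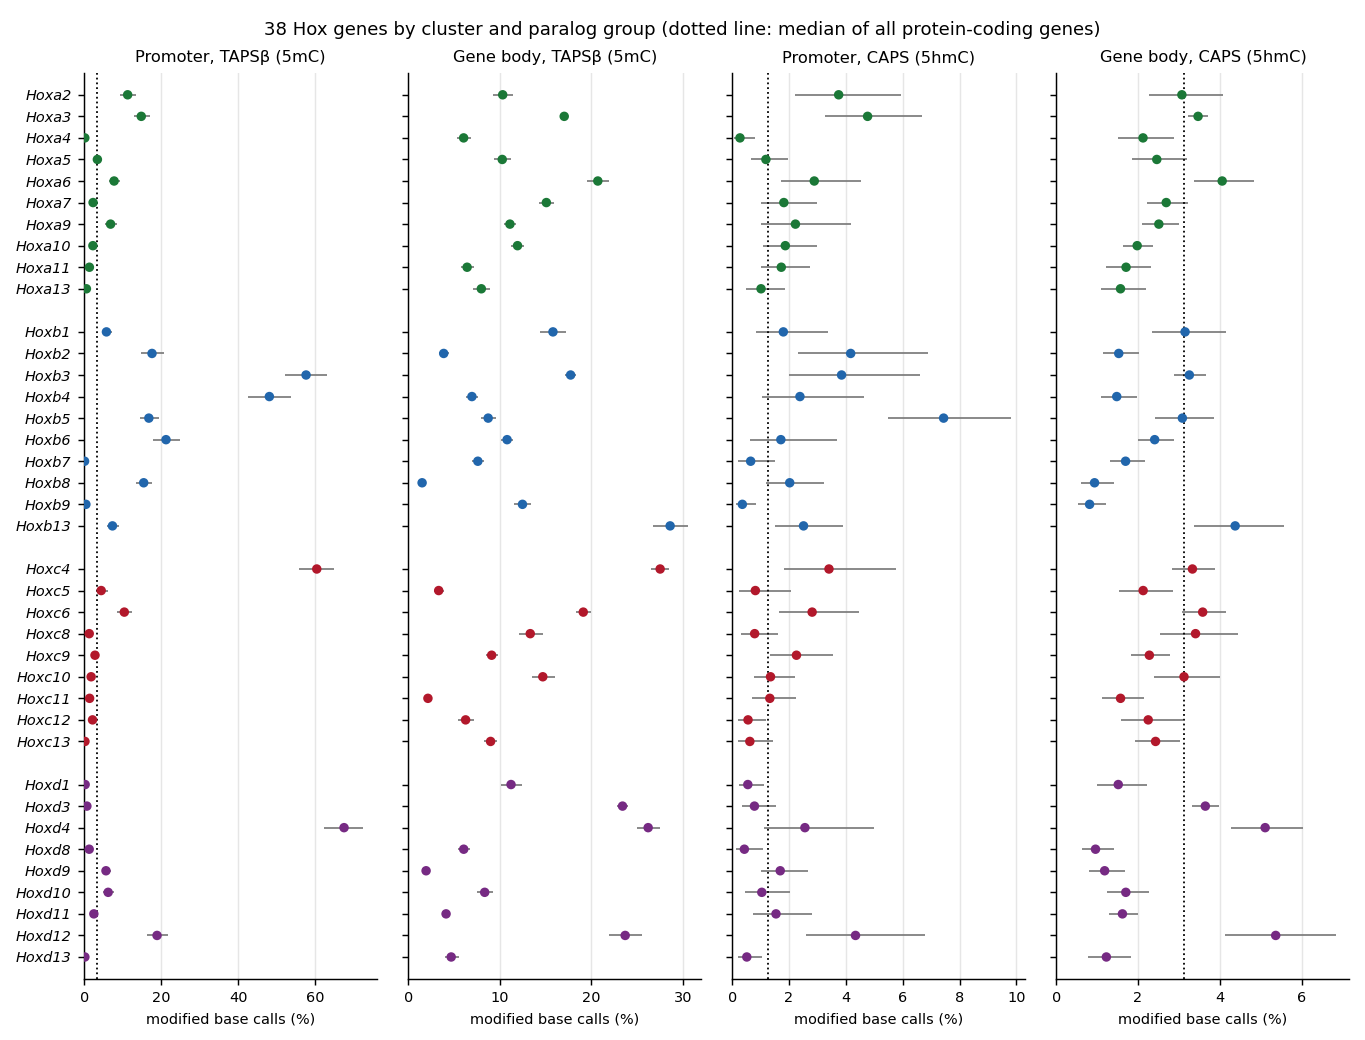
TAPSβ and CAPS levels (percentage of base calls modified) in the promoters and bodies of the 38 Hox genes, ordered by cluster and paralog group, with 95% counting intervals as grey bars and the median of all protein-coding genes as a dotted line. Member promoters lie on both sides of the all-gene TAPSβ median of 3.38%, whereas every member body lies left of 53.8%, which falls outside the axis of that panel and so has no line.

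The promoters differed in CpG content along with their level. The 13 promoters with a TAPSβ level under 2% had at least 49.0 CpGs per kb, and the 12 promoters at or above 10% had at most 45.0 CpGs per kb. The medians were 57.9 CpGs per kb for the promoters under 10% and 28.0 for the others. The densest member promoter, that of Hoxa13, held 128 CpGs, and that of Hoxd4 held 13.

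Several of the high levels were those of the outermost start of a gene with more than 1 start. For 14 members a coding transcript began more than 500 bp from the outermost start, and for 11 of these the start nearest to the coding sequence read lower. Hoxa6, one of the 14, has 1 coding transcript, which begins at the inner start. Hoxd4 read 67.6% at the outer and 7.73% at the inner start, 5096 bp apart. Hoxc4 read 60.5% and 5.52% (15459 bp apart), Hoxb6 21.3% and 3.87%, and Hoxb8 15.5% and 0.877%. Hoxb3 had 27.6% at its inner start, against 57.7%. The order was the opposite for Hoxd3, whose outermost start read 0.710% and whose inner start, 33745 bp away, read 43.4%. Hoxc6 and Hoxa10 were also higher at the inner start, at 15.1% and 2.70%. Taken at the inner starts, 29 of 38 members were under 10%, the median was 3.66%, and Hoxb4, which has 1 coding transcript, was the highest at 48.1%. Inner starts were not taken for all genes, so the counts at inner starts stand without an all-gene share.

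**Figure D2:**
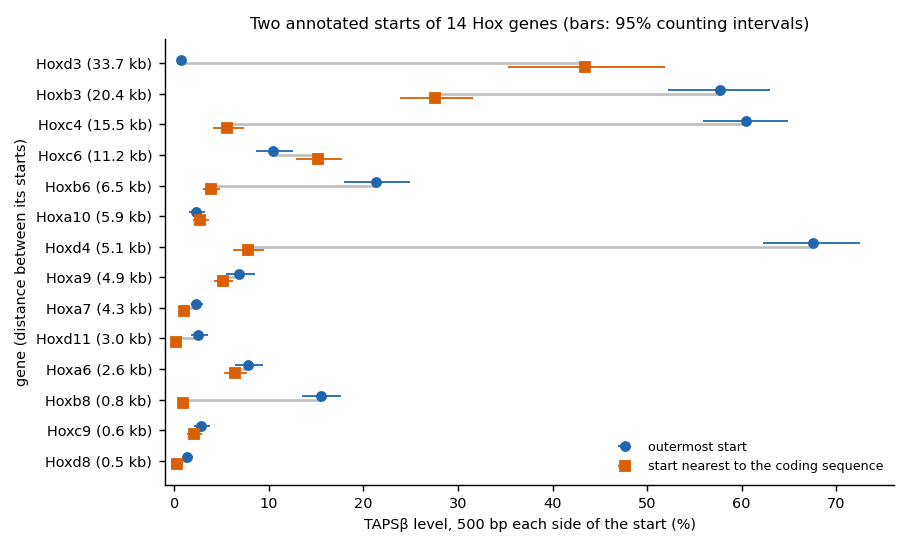
TAPSβ levels within 500 bp of each of a pair of annotated starts of the 14 Hox genes whose starts lie over 500 bp apart, with 95% counting intervals; the distance between the starts is given beside each name. Hoxd4 and Hoxc4 move from over 60% to under 8%, and Hoxd3 moves the other way, from 0.710% to 43.4%.

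The TAPSβ level dipped at the outermost starts in the members and in all genes, and the members read lower further out. Members lie close together, so windows of 5000 bp on each side run into neighbouring members. The window around the Hoxb7 start, for example, holds the Hoxb8 start. In the 500 bp downstream of the start the members had a TAPSβ level of 3.98% (3.78 to 4.19%) and all protein-coding genes 5.00%. In the 500 bp upstream the order was the other way, with 7.5% (7.15 to 7.86%) for the members and 7.015% for all genes. From 1000 to 1500 bp downstream the members read 9.65% and all genes 25.1%, and from 4500 to 5000 bp the levels were 17.1% and 51.1%. On the upstream side, between 4500 and 5000 bp, the members read 20.04% and all genes 50.7%. For CAPS the members read 1.28% (1.12 to 1.45%) and all genes 1.24% in the 500 bp downstream of the start, and 2.19% (1.92 to 2.48%) and 1.62% in the 500 bp upstream. Further out the order differed between steps. From 500 to 1000 bp upstream the members read 3.64% (3.22 to 4.1%) and all genes 3.04%. From 1500 to 2000 bp downstream the levels were 3.43% (3.07 to 3.83%) and 3.42%, and from 4500 to 5000 bp downstream 2.59% (2.25 to 2.96%) and 3.74%.

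**Figure D3:**
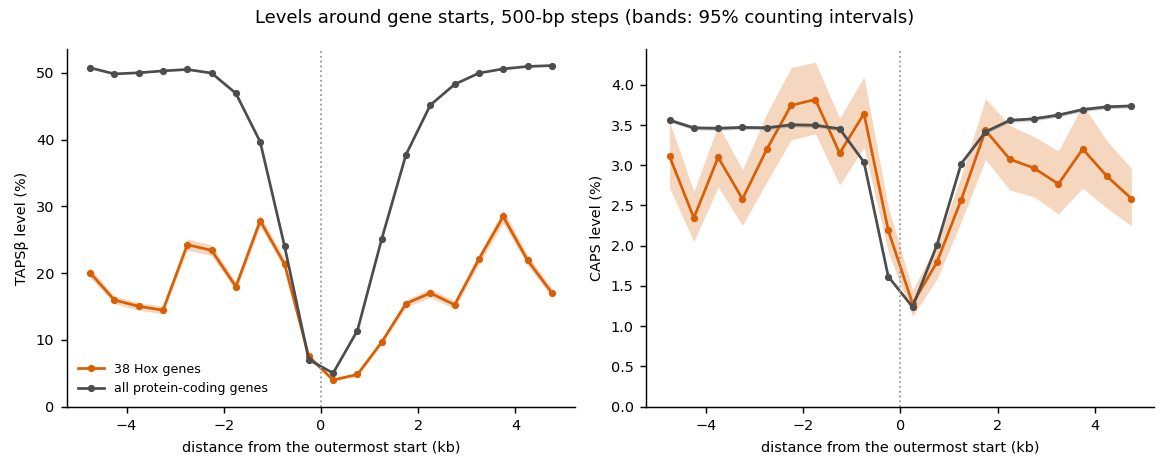
TAPSβ (left) and CAPS (right) levels in 500-bp steps within 5 kb of the outermost start, for the 38 Hox genes and for all protein-coding genes, with bands for 95% counting intervals. Both sets dip at the start, and beyond 1 kb the TAPSβ level of the Hox genes stays under 30% while that of all genes rises to about 50%.

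5hmC in the member bodies was modest. The median body CAPS level was 2.34%, against 3.14% over all genes. Among genes of at most 10 kb the medians were 2.12% for the members and 2.59% for all genes, and among longer genes they were 3.47% and 3.34%, the other way round. Of the member bodies, 11 of 38 were above the genome-wide level of 3.14%, which was about the median over the bodies of all genes. The highest were Hoxd12 at 5.37% (4.12 to 6.85%), Hoxd4 at 5.11% (4.28 to 6.04%), Hoxb13 at 4.38% (3.38 to 5.56%), Hoxa6 at 4.06% (3.36 to 4.85%) and Hoxd3 at 3.65% (3.33 to 3.98%). Their intervals overlap, apart from those of Hoxd3 and the leading pair. These 5 genes are also 5 of the 6 members with a body TAPSβ level above 20%, the other being Hoxc4 (CAPS 3.33%). Hoxd4 lies wholly within the Hoxd3 record, so all of its calls are also calls of Hoxd3. The lowest CAPS bodies were Hoxb9 at 0.812% (0.521 to 1.21%), Hoxb8 at 0.934% (0.593 to 1.40%) and Hoxd8 at 0.957% (0.626 to 1.40%). Hoxb9 paired this low CAPS level with a body TAPSβ level of 12.5%, whereas Hoxb8 was low in both.

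Among promoters, Hoxb5, a trunk and gut neural crest gene, had the highest CAPS level, 7.44% (5.48 to 9.83%), beside a TAPSβ level of 16.8%. Hoxa3 followed with 4.76% (3.26 to 6.69%), Hoxd12 with 4.34% (2.59 to 6.77%) and Hoxb2 with 4.17% (2.296 to 6.89%). The promoters with the highest TAPSβ levels read 3.85% (Hoxb3), 3.40% (Hoxc4), 2.56% (Hoxd4, 1.11 to 4.97%) and 2.38% (Hoxb4), and their intervals overlap those of Hoxa3, Hoxd12 and Hoxb2. In 8 promoters, those of Hoxa4, Hoxb7, Hoxb9, Hoxc12, Hoxc13, Hoxd1, Hoxd8 and Hoxd13, the CAPS level lay under 0.72%, the rate on unmodified cytosine that the call test uses. Their pooled levels thus show no 5hmC above this rate at this depth. The intervals of Hoxa5, Hoxa13, Hoxb6, Hoxc5, Hoxc8, Hoxc11, Hoxd3 and Hoxd10 also reached below it, so their pooled levels are not shown to exceed it. Of 20750 protein-coding genes, 25.5% had a promoter CAPS level under this rate.

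PS levels, which read 5fC/5caC, were low throughout. The rate at which PS reads unmodified cytosine as modified, measured by the study on spike-in DNA, is about as high as the pooled and median levels here. It was neither subtracted nor tested against, so none of these PS levels is shown to lie above background. The body PS levels ran from 0.0987% at Hoxa7 to 0.551% at Hoxb1, with a median of 0.248%, against a median of 0.183% over the bodies of 21559 genes and a genome-wide level of 0.246%. In 5 of 38 promoters no PS call was modified, against 29.9% of 20729 genes. The posterior and anterior bodies differed by less than the counting interval, with a ratio of 1.04 (0.832 to 1.31).

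Paralog groups 1 to 4 are called anterior here, 5 to 8 middle and 9 to 13 posterior. Whole gene records of the 11 anterior members had a pooled TAPSβ level of 17.9% (17.7 to 18.1%), those of the 11 middle members 11.7% (11.4 to 11.9%) and those of the 16 posterior members 8.93% (8.74 to 9.13%). CAPS followed, at 3.20%, 2.57% and 2.04%. The merged span of the anterior Hoxa3 holds the middle genes Hoxa5 and Hoxa6, so their calls count in both classes. The posterior to anterior ratio was 0.499 (0.486 to 0.513) for TAPSβ and 0.639 (0.590 to 0.691) for CAPS. The ratio lay nearer to 1 in narrower regions. When each gene was cut to its shortest coding transcript, anterior bodies read 8.06% and posterior bodies 7.30%, a ratio of 0.906 (0.864 to 0.95), and the CAPS ratio was 0.921 (0.812 to 1.05). In 1-kb bins of bodies with 20 to 39 CpGs the TAPSβ ratio was 0.775 (0.743 to 0.809) and the CAPS ratio 0.946 (0.838 to 1.07). Both alternatives were added after the data had been seen. The order also differed between clusters: in HoxD the posterior bodies read 6.18% and the anterior ones 22.0%, and in HoxC 7.97% against 27.5% for Hoxc4 alone, while in HoxB the posterior pair Hoxb9 and Hoxb13 read 17.5% and the anterior genes 12.8%.

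Over the 4 clusters together, the posterior promoters read lower than the anterior ones at either start. The pooled level was 10.8% (10.2 to 11.3%) for the anterior, 5.50% for the middle and 2.75% (2.56 to 2.95%) for the posterior promoters, and 15 of 16 posterior promoters were under 10%, against 7 of 11 middle and 4 of 11 anterior ones. The exception among the posterior genes was Hoxd12. Of all protein-coding genes measured, 59.3% were under 10%, and the middle class lay near this share. At the start nearest to the coding sequence the anterior and posterior levels were 7.84% and 2.40%, a ratio of 0.306 (0.278 to 0.337), against 0.255 at the outermost starts. With groups 1 to 3 as anterior, the anterior promoters read 7.93% (7.37 to 8.52%) and the middle ones 7.81% (7.44 to 8.20%), so no step between these classes was left. In HoxD the intervals of the anterior (5.395%) and posterior (4.54%) promoters overlap, and the single middle one, Hoxd8, was the lowest at 1.31%. The posterior promoters were also the more CpG-dense, with a median of 53.9 CpGs per kb against 31.0 for the anterior ones, and the part of CpG content in this order was not tested.

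Across whole clusters, from the first to the last member, the TAPSβ level was 17.5% (17.4 to 17.7%), and in the 50 kb on each side it was 41.7% (41.4 to 42.0%), a ratio of 2.38 (2.35 to 2.40). HoxA read 14.4%, HoxD 15.7%, HoxC 16.5% and HoxB 22.0%. In HoxB the gap between Hoxb13 and Hoxb9 read 35.6% (35.0 to 36.1%) over 74009 bp, and without it and Hoxb13, from Hoxb9 on, the cluster read 16.05% (15.8 to 16.3%). By annotation, with the promoter windows left out, exons of the members read 10.04%, introns 20.7% and the sequence between genes 29.6%. For CAPS the inside level was 2.87% (2.80 to 2.95%) and that of the flanks 3.59% (3.47 to 3.71%), and for PS the order was the other way, 0.241% (0.221 to 0.262%) inside and 0.180% (0.154 to 0.208%) in the flanks. Whether this PS difference is one of 5fC/5caC was not tested.

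The clusters were not uniformly low. Of 485 bins of 1 kb inside them, 121 (24.9%) were under 10% TAPSβ, against 1.96% of 2355042 bins in the genome, and 157 (32.4%) were at 50% or above, against 294 of the flanking bins (73.7%) and 86.4% of the genome. HoxA had the largest share of low bins, 32.7%, and HoxB the smallest, 20.6%. The longest unbroken runs of low bins, at 20 or more calls per bin, were 5 kb long in HoxB, over Hoxb8 and Hoxb7 (2.40% TAPSβ), and in HoxD, where there were 2, over Hoxd11 (1.35%) and at the neighbouring homeobox gene Evx2 in the posterior flank (2.97%). In HoxC the longest was 4 kb, over Hoxc11 (2.47%). HoxA had 2 runs of 3 kb, within the merged Hoxa3 span (3.77%) and over Hoxa10 (1.41%).

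The edges of the clusters depended on how they were set. A border was set where 3 bins in a row first reached 50% TAPSβ. On the anterior side it lay 0.800 kb beyond Hoxd1, 0.726 kb beyond Hoxc4 and 0.430 kb beyond Hoxb1, and 12.3 kb beyond Hoxa2, the last HoxA member. On the posterior side it lay 1.53 kb beyond Hoxc13, 5.63 kb beyond Hoxb13, 13.4 kb beyond Hoxd13 and 14.1 kb beyond Hoxa13. The low stretch beyond Hoxd13 read 8.29% up to its border and holds most of the Evx2 record, and the HoxD flanks read 29.5% on the posterior and 62.4% on the anterior side. Beyond the anterior HoxC border the flank read only 36.3%. With a run of 5 bins the anterior borders of HoxB and HoxC moved to 12.4 and 11.7 kb, that of HoxA to 24.3 kb and the posterior one of HoxB to 10.6 kb, and HoxC then read 33.5% before and 36.95% after its anterior border. With a level of 30% the posterior HoxA border moved to 2.13 kb. The HoxD borders and the posterior HoxC border stayed under both settings.

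**Figure D4:**
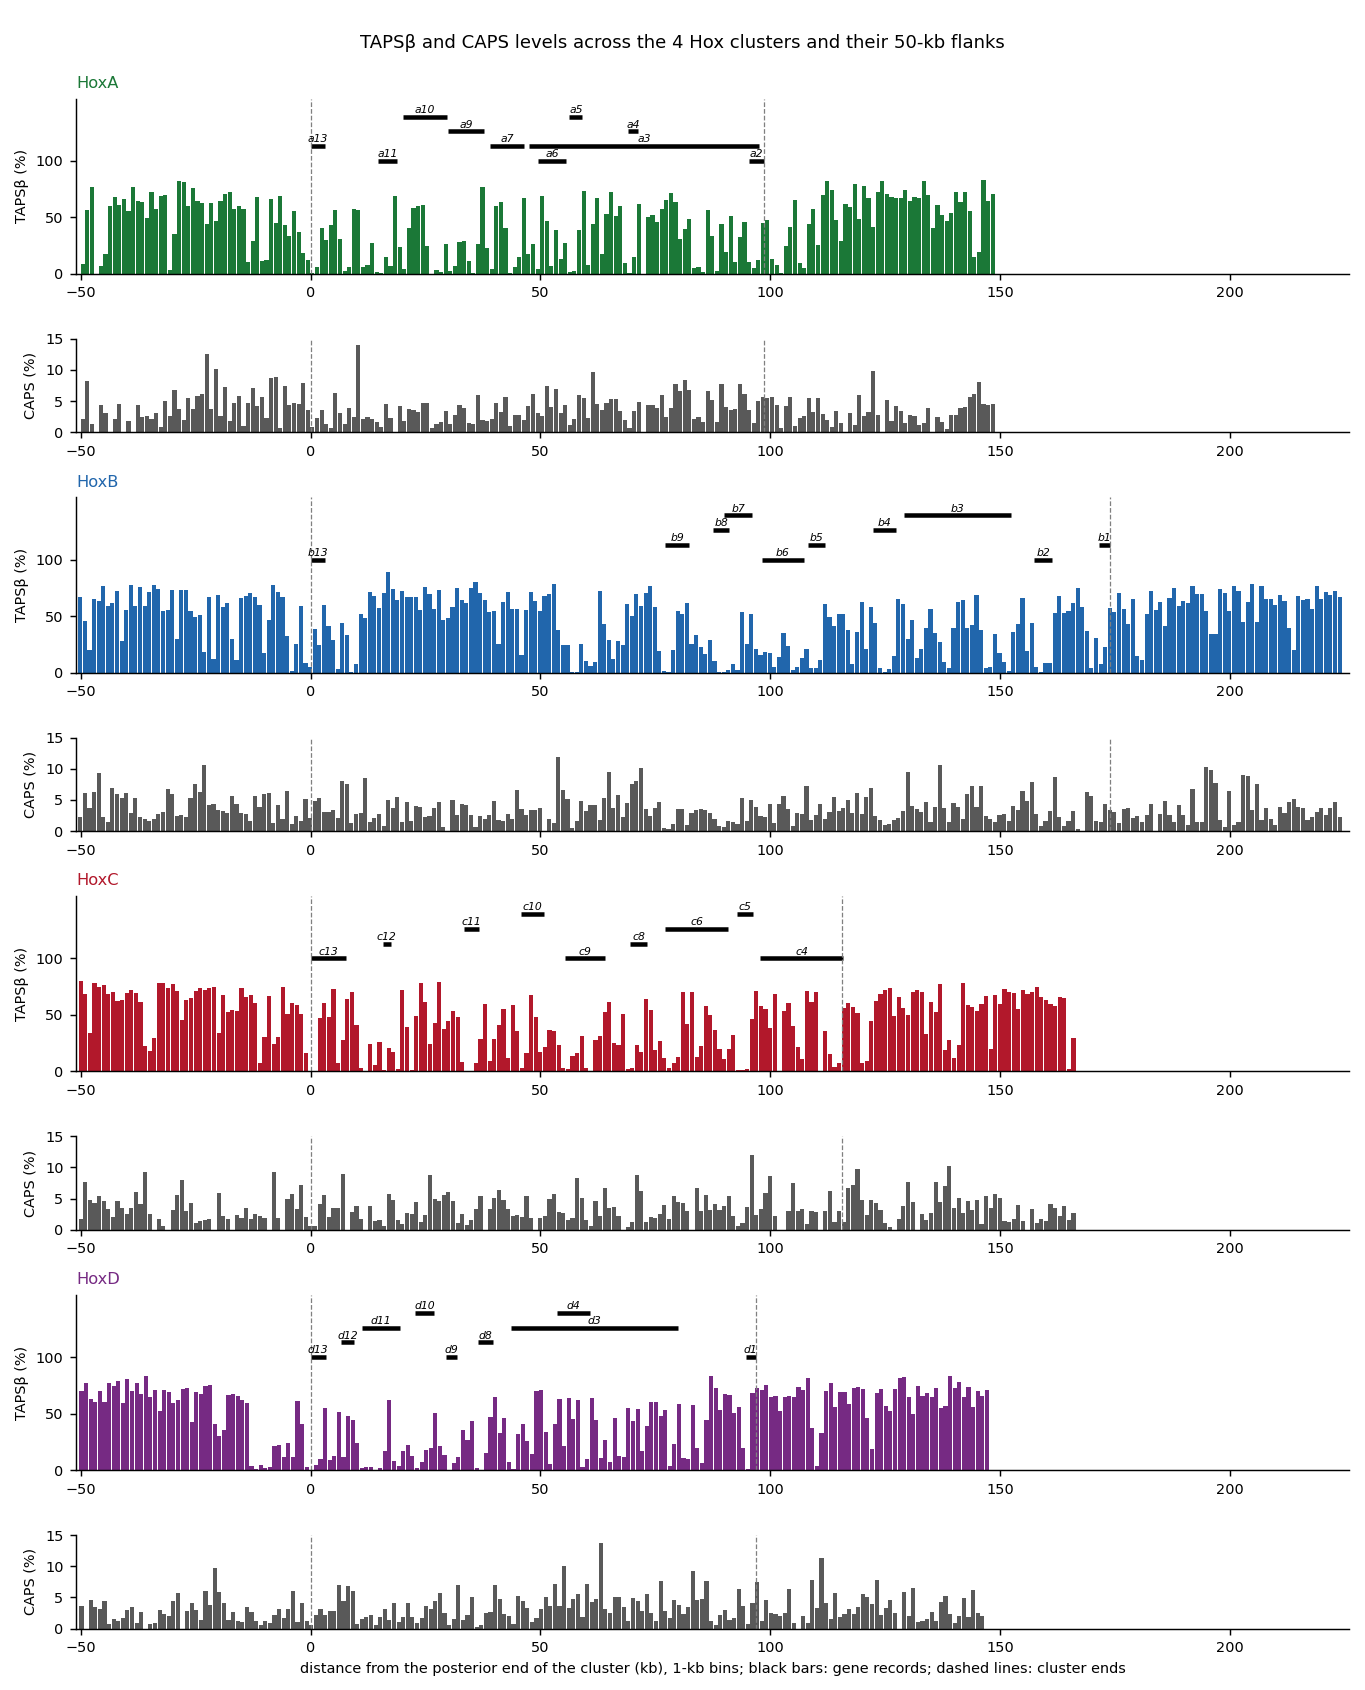
TAPSβ (coloured bars) and CAPS (grey bars) levels in 1-kb bins along the 4 clusters and 50 kb on each side, against the distance in kb from the posterior end, with gene records as black bars and cluster ends as dashed lines. The Hoxb13 to Hoxb9 gap, which reads 35.6% as a whole, holds both high and low TAPSβ bins, and the HoxD level drops 13.4 kb before Hoxd13.

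Below 40 CpGs per bin, the TAPSβ level inside the clusters was lower than that of the chromosomes in each class of CpG density, and that of the flanks lay between them. In 1-kb bins with 10 to 19 CpGs the TAPSβ level was 40.8% (40.3 to 41.2%) inside the clusters and 61.3% over the whole of the same 4 chromosomes, and with 20 to 39 CpGs it was 19.6% (19.4 to 19.8%) against 41.8%. With 1 to 9 CpGs the levels were 53.2% and 66.2%. The flanks read 54.4% with 10 to 19 CpGs, 25.2% with 20 to 39 and 63.7% with 1 to 9. In the densest bins, with 40 or more CpGs, the order turned, with 3.999% (3.91 to 4.09%) inside and 3.3% over the chromosomes. CAPS levels were above those of the chromosomes in 3 of the 4 classes: 3.77% (3.48 to 4.07%) against 2.66% with 1 to 9 CpGs, 4.17% (3.96 to 4.38%) against 3.79% with 10 to 19 and 1.65% (1.56 to 1.73%) against 1.32% with 40 or more. At 20 to 39 CpGs the inside level was below, 3.55% (3.41 to 3.70%) against 4.05%. The flanks also read above the chromosomes, at 3.07% with 1 to 9 CpGs, 4.08% (3.86 to 4.30%) with 10 to 19 and 4.42% with 20 to 39. With 40 or more they read 1.52% (1.28 to 1.79%), an interval that includes the level of the chromosomes. With 10 to 19 and with 40 or more CpGs the intervals of flanks and inside overlap.

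In bins of intermediate TAPSβ level, the CAPS level was lower inside the clusters than in the genome. In bins of 10 to 30% TAPSβ the CAPS level was 3.82% (3.66 to 3.99%) inside the clusters, 4.63% (4.30 to 4.98%) in the flanks and 5.22% in the genome. The flanks thus also lay below the genome in this class. In bins of 30 to 50% it was 4.78% (4.51 to 5.06%), 6.03% and 5.74%. Below 10% the inside level was 1.64% (1.56 to 1.72%) and that of the genome 1.49%, and at 50 to 70% it was 3.803% (3.57 to 4.05%) against 3.47%. These classes are wide, and CpG density, with which the CAPS level also varied, was not matched within them. The part of CpG density in these differences was not tested.

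**Figure D5:**
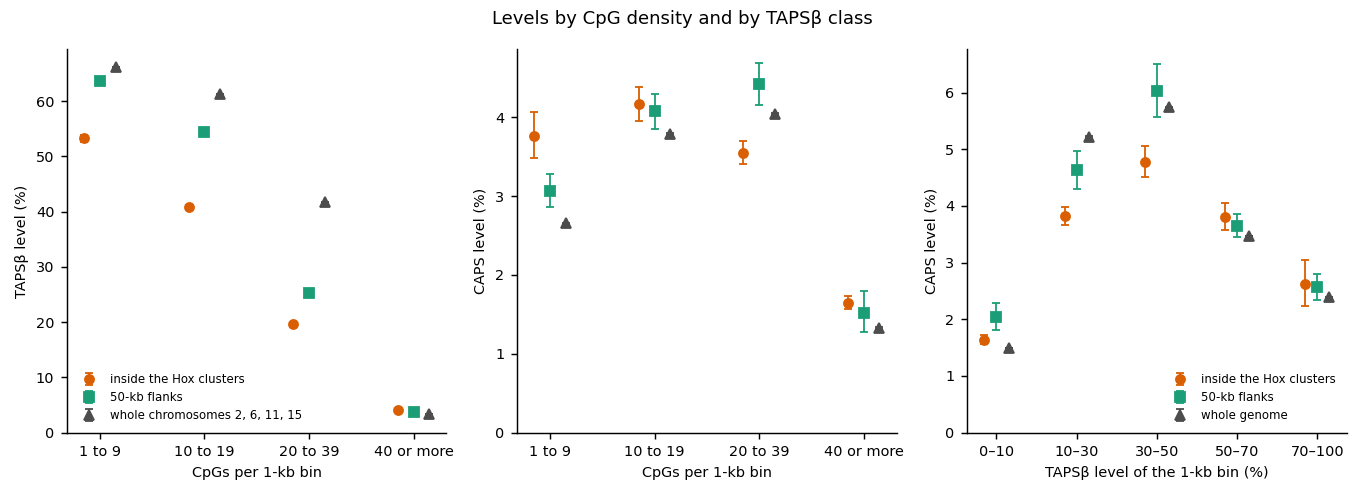
TAPSβ and CAPS levels by the number of CpGs in a 1-kb bin (left and middle) and CAPS level by the TAPSβ level of the bin (right), inside the Hox clusters, in their flanks and in the chromosomes or genome, with 95% counting intervals. At 20 to 39 CpGs the clusters read 19.6% TAPSβ against 41.8%, and at 30 to 50% TAPSβ they read 4.78% CAPS against 5.74% in the genome.

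Single cytosines carrying 5hmC were called where CAPS read more modified bases than the rate on unmodified cytosine allows (exact binomial test, one-sided, with 5 or more reads and a Benjamini-Hochberg adjusted p under 0.05 over the genome). In the clusters 246 of 20395 tested cytosines were called (1.21%, 1.06 to 1.37%), against 1.64% of 36060655 in the genome and 1.73% in the flanks. Read depth, on which a call depends, was not matched between these sets. With at least 10 reads the shares were 1.59% in the clusters and 1.96% in the genome. The count in the clusters was 142 with at least 10 reads and 910 when the adjustment covered only cytosines with a modified read. The counts by cluster and gene below hold for the first rule alone. There were 70 in HoxA, 81 in HoxB, 46 in HoxC and 49 in HoxD. In member bodies the share was 1.10% and in member promoters 0.320%, with 10 calls in 7 promoters: 3 in Hoxa3, 2 in Hoxb2 and 1 each in Hoxa11, Hoxb5, Hoxc6, Hoxc8 and Hoxd12. These shares were not computed for the bodies and promoters of all genes, so they are not shown to be particular to the members. In HoxB, 28 of the 81 calls lay in gene bodies, which held 3321 of its 6457 tested cytosines. In HoxA, 63 of 70 lay in gene bodies, which held 4351 of 5027. Of these calls, 45 were in the long merged span of Hoxa3, which held 2220 tested cytosines. On both strands, 7 CpGs were called.

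The highest called cytosine with at least 10 CAPS reads in each cluster is shown with 20 bases on each side, on the strand of the cytosine, 5′ to 3′, with its CpG in capitals, as examples of called sites. In HoxD, 3 cytosines were equal at 4 of 10 reads, and the one shown is the first by position. They lay on the minus strand at chr6:52159536-52159576, chr11:96126464-96126504 and chr15:102822443-102822483, and on the plus strand at chr2:74534943-74534983.
HoxA: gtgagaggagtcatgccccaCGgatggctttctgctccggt
HoxB: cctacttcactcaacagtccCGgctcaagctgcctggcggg
HoxC: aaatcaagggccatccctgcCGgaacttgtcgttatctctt
HoxD: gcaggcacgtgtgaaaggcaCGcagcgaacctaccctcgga
The HoxA site, in introns of Hoxa3 and Hoxa6, read 4 of 10 CAPS reads as modified (40%, 12.2 to 73.8%) and 8 of 11 TAPSβ reads. The HoxB site, between Hoxb13 and Hoxb9, read 5 of 11 (45.5%, 16.8 to 76.6%), the highest of all, with 6 of 10 TAPSβ reads. The HoxC site, in an intron of Hoxc8, read 5 of 13 (38.5%, 13.9 to 68.4%), and the HoxD site, 774 bp from the Hoxd9 start, read 4 of 10. PS read 0 modified calls at each of these 4 cytosines. With intervals this wide the sites cannot be ranked.

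On the scale of 1 kb, the bin picked for the highest CAPS level of each cluster held few CpGs and few CAPS calls. In HoxA it was 14.04% (6.26 to 25.8%) in a bin between Hoxa11 and Hoxa13, with a TAPSβ level of 56.3%. In HoxD it was 13.8% (6.15 to 25.4%) within the Hoxd3 record, with 10.4% TAPSβ (5.11 to 18.3%). In HoxC it was 12.03% (7.04 to 18.8%) over Hoxc5, and in HoxB 11.9% (6.82 to 18.9%) between Hoxb13 and Hoxb9. These bins held 3 to 9 CpGs each, with 57 CAPS calls in HoxA, 126 in HoxB, 133 in HoxC and 58 in HoxD. Levels of bins with few calls vary most by counting, and the intervals do not allow for the choice of the maximum. More 5hmC in sparse bins is therefore not shown by them.

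A list of 18 related genes held cofactors of the Pbx, Meis and Pknox families, Cdx and Polycomb or Trithorax regulators, and the neighbours Evx1 and Evx2. Of these, 18 of 18 promoters were under 10%, with a median of 0.471%, against 59.3% of all genes measured. Further, 4 of 18 bodies were under 20%, with a median of 42.7%, against 9.16% of all genes measured. Without the neighbours it was 2 of 16 bodies, and gene length was not matched. The 4 were Evx1 (6.55%), Evx2 (8.15%), Cdx2 (6.40%), a homeobox regulator of Hox genes, and the cofactor Pbx2 (18.04%). Ezh2, the Polycomb methyltransferase, had a body level of 48.9%, and Meis1, a DNA-binding cofactor of Hox proteins, 54.0%.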

How the data were processed

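Genomic DNA of E14 mESCs was sequenced in 1 library each for TAPSβ, CAPS and PS. Per the labels and the study's methods, reads were trimmed with Trim Galore 0.3.1, mapped to mm9 with BWA 0.7.12, and cleared of PCR duplicates with Picard 2.3.0. The authors deposited, for each CpG cytosine, the count of modified and of unmodified base calls and their fraction. The deposited counts were used, and the fraction was not. With these libraries a level rests on 9 to 13 reads per cytosine, so single cytosines have wide intervals.

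Counts were summed over promoters (500 bp each side of the outermost start), gene records, exons and 1-kb bins with at least 20 calls, with genes and bases from GENCODE M1 on NCBIM37, whose CpGs hold every listed cytosine of the 4 chromosomes. Python 3.11.15 was used with pandas 2.3.3, numpy 2.4.6 and scipy 1.17.1. The CAPS test used a rate of 0.72% on unmodified cytosine, from the study's methods, and was tested on simulated data. The 38 genes, the lists and the classes were chosen with earlier results of these data known. Described in full were, per cluster, the members with the highest and lowest TAPSβ promoter and body, the 5 members with the highest CAPS body, the top CAPS bin, and the highest CAPS-called cytosines with at least 10 reads. Alternatives changed the read minimum, averaging, window, start, gene body, call rule, border rule and classes.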

Additional observations from a re-analysis of the deposited data

How the results depend on the processing

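Over 22 results, 55 of 83 alternative values kept within the counting interval of the reported value, within 1.5 times for counts, or within 1 kb for borders. A reversal of direction was looked for only in the posterior to anterior ratios, and none of these went above 1. The interval of the CAPS body ratio included 1 over the shortest coding transcripts (0.812 to 1.05) and in bins of 20 to 39 CpGs (0.838 to 1.07). Averaging over cytosines gave TAPSβ levels of 5.91% for the promoters, 14.04% for the bodies, 18.8% inside the clusters and 43.1% in the flanks. Promoters of 250 bp and 1000 bp each side gave TAPSβ levels of 5.64% and 7.15%, the wider window a CAPS level of 1.96%, and the start nearest to the coding sequence 3.78% TAPSβ and 1.47% CAPS. Bodies without the promoter read 14.6% TAPSβ and 2.81% CAPS, and the shortest coding transcripts 7.76% and 2.14%. From Hoxb9 on in HoxB, an alternative added after seeing the data, the clusters read 15.6%. Called cytosines numbered 142 with at least 10 reads and 910 when the adjustment covered only cytosines with a modified read, and their share in the clusters stayed under that of the genome each time (1.59% against 1.96%, and 20.7% against 22.8%). At a level of 30% the posterior borders moved to 2.13 kb for HoxA and 4.63 kb for HoxB, and with a run of 5 bins the borders moved to 24.3 kb (HoxA anterior), 10.6 kb (HoxB posterior), 12.4 kb (HoxB anterior) and 11.7 kb (HoxC anterior). The posterior to anterior ratio of promoter TAPSβ was 0.347 with groups 1 to 3 as anterior and 0.306 at the inner start. For bodies it was 0.906 (TAPSβ) and 0.921 (CAPS) over the shortest coding transcripts, and 0.775 and 0.946 in bins of 20 to 39 CpGs. The counts of low promoters and bodies stayed at 24 to 29 and 29 to 36. No paired analysis was possible because each method has 1 library. Intervals cover counting error only, and the spread between cultures was not measured.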
